A study of Mus musculus with 9 samples.

Results

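The genes described here are 9 clade B serpins of keratinocytes: Serpinb2, Serpinb3a, Serpinb3b, Serpinb3c, Serpinb3d, Serpinb5, Serpinb8, Serpinb11 and Serpinb12. They were taken by gene name from a table of 55536 genes, and each name matched 1 row. RNA was measured in the epidermis of mice of 3 genotypes, 3 animals each: Hmga2-/-, named for the loss of the chromatin protein HMGA2 with no deleted part given, K5H2, whose construct and driver are not given in the labels, and WT. All 9 animals were 8 weeks old, had dorsal skin in telogen, the resting phase of the hair cycle, and had received UVB at 20 mJ/cm2 in each of 2 doses over 3 days. Skin was taken 24 h after the final exposure, and overnight digestion in 0.25% trypsin freed the epidermis as a sheet. The sample titles call the material enzymatically isolated, UVB-exposed keratinocytes. Every comparison is therefore between exposed genotypes, and no unexposed skin enters.

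Serpins are protease inhibitors that act as bait: the target enzyme cuts an exposed loop of the serpin and is trapped in a covalent complex. Clade B members lack a classical signal peptide and work mostly inside cells, where they are thought to protect the cell from its own proteases or from those of other cells. Epidermis and other stratified epithelia express many of them, and the human relatives of the Serpinb3 genes were first found as squamous cell carcinoma antigens. Not all members are inhibitors: Serpinb5, or maspin, carries the serpin fold without inhibiting proteases and is known as a tumour suppressor in epithelia.

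The values are normalized counts, that is, read counts that the authors scaled for library depth and rounded. Genes in the table took approximately 15.4 M reads in Hmga2-/- animal 3 and between 28.1 and 41.5 M in the other 8 libraries. Mitochondrial genes took 0.279% of the total in that same library and 0.502% to 2.15% in the others, and Hmga2-/- animal 3 and WT animal 1 lay at opposite ends of the main axis of variation. Hmga2 itself had normalized counts of 3, 9 and 7 in Hmga2-/- animals, 4, 11 and 0 in K5H2 animals and 346, 11 and 56 in WT animals. The Hmga2-/- values lay below all WT values, and an exact two-sided permutation test gave p = 0.1, the smallest that 3 against 3 allows. The K5H2 values overlapped those of WT (exact p = 0.2) and of Hmga2-/- (exact p = 0.7), so this gene does not check the label K5H2. The log2 differences from WT were -3.18 in Hmga2-/- and -3.98 in K5H2 animals (limma adjusted p = 0.152 and 0.116), and with single libraries left out the Hmga2-/- difference ran from -4.36 to -1.93 (adjusted p 0.0522 to 0.507). The 6 keratinocyte markers were summed to check the tissue, and their sum reached 2.82 to 4.19 M in Hmga2-/- animals, 2.62 to 3.00 M in K5H2 animals and 2.24 to 3.25 M in WT animals.

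The 9 genes lie in 1 cluster on chromosome 1 that spans chr1:106861173-107610484 on GRCm38, 749 kb in length, together with Serpinb7, Serpinb10 and Serpinb13. The coordinates in the table were the same as those of GENCODE vM21 for 12 of these 12 genes. On the plus strand, in order, were Serpinb5 (chr1:106861173-106883348), Serpinb12 (chr1:106934449-106957080), Serpinb11 (chr1:107361198-107380475), Serpinb2 (chr1:107511423-107535478) and Serpinb8 (chr1:107590006-107610484). The 4 Serpinb3 genes lay on the minus strand between Serpinb12 and Serpinb11: Serpinb3a (chr1:107045587-107052303), Serpinb3d (chr1:107078167-107083506), Serpinb3b (chr1:107153940-107278361) and Serpinb3c (chr1:107271201-107278371). The long annotated model of Serpinb3b enclosed most of Serpinb3c, and their exons shared 35 bases. All 9 members are annotated as protein coding.

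The Serpinb3 genes are close copies of each other, and that closeness bears on how reads can be assigned to them. Their coding sequences, of 1158 to 1161 bases, were between 86.2% (Serpinb3c with Serpinb3d) and 93.4% (Serpinb3b with Serpinb3c) identical, and Serpinb3a and Serpinb3b were 92.7% identical. No other pair of members passed 57.1%, and the least alike were Serpinb5 and Serpinb12 at 48.5%. The first 60 coding bases, counted from the A of the start codon, are shown because this is the stretch of that length in which Serpinb3a and Serpinb3b differ most, at 17 positions. Capitals mark bases that differ from Serpinb3a, and the sequences are from the GENCODE vM21 transcripts on GRCm38.
Serpinb3a: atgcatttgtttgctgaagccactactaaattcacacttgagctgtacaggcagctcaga
Serpinb3b: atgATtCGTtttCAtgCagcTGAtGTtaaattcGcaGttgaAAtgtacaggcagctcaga
Serpinb3c: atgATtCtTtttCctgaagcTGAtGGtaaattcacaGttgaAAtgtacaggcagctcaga
Serpinb3d: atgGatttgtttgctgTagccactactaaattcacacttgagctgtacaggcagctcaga
Serpinb3d differed from Serpinb3a at 2 of these 60 positions, and Serpinb3c differed from Serpinb3b at 5.

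Reads that fall in stretches shared by copies cannot be given to 1 gene from sequence alone, so the values of these genes carry that uncertainty. Of the 1582 windows of 50 bases in the transcripts of Serpinb3a, 238 occurred unchanged in another gene, beside shares of 14.7% for Serpinb3b, 12.2% for Serpinb3c and 13.4% for Serpinb3d. With windows of 100 bases the shares in the same order were 6.53%, 0.515%, 0.513% and 0%, and those of Serpinb3a were shared with the predicted gene Gm8080. Serpinb2 shared 291 exon bases with the next gene on its strand, Serpinb10, and 10.4% of its 50-base windows. Serpinb8 shared 0.165% of them, and Serpinb5, Serpinb11 and Serpinb12 shared none. Neither the read length nor the handling of reads with several matches is stated in the sources used here.

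The 250 bases before the annotated starts of Serpinb3a, Serpinb3b and Serpinb3c are shown because these windows are near copies while the genes' levels are far apart. They are from the RefSeq table on GRCm38, read on the minus strand, at chr1:107052304-107052553 for Serpinb3a, chr1:107161115-107161364 for Serpinb3b and chr1:107278372-107278621 for Serpinb3c. The Serpinb3b window lies at its RefSeq start, inside the longer GENCODE model. Capitals mark the motif TATAAA.
Serpinb3a: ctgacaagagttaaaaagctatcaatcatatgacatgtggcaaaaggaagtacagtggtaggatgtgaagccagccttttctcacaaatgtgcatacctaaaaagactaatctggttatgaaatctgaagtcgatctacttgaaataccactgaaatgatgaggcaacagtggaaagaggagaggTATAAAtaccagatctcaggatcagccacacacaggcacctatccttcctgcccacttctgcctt
Serpinb3b: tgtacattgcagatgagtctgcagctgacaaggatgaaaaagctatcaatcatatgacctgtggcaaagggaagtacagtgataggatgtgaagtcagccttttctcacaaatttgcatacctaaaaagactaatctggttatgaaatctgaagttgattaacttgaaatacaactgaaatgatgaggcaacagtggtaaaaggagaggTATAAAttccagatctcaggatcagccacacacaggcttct
Serpinb3c: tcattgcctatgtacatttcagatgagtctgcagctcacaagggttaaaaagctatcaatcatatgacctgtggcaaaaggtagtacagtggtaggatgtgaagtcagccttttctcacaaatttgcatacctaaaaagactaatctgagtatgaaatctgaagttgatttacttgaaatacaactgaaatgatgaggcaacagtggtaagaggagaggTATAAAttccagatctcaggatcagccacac
The windows of Serpinb3b and Serpinb3c were 95.4% identical over 240 aligned bases, those of Serpinb3a and Serpinb3c 94.0% and those of Serpinb3a and Serpinb3b 92.5%. The Serpinb3d window was between 45.8% and 49.3% identical to these. TATAAA, the core of the TATA box, began 65 bases before the annotated start in Serpinb3a, 41 in Serpinb3b and 31 in Serpinb3c.

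Searched on both strands of the first annotated window of each gene, TATAAA was also in the windows of Serpinb2 (29 bases before the start), Serpinb3d (40 bases, minus strand) and Serpinb12 (220 bases), and in none of those of Serpinb5, Serpinb8 and Serpinb11. It was in 12.4% of 32851 windows of the same length from 27025 genes. TGANTCA, where N is any base, is looser than the AP-1 site, which has C or G at that place. The looser pattern was in the windows of Serpinb5 (140 bases before the start), Serpinb12 (45), Serpinb11 (181 and 76), Serpinb2 (94) and Serpinb8 (23), against 6.75% of all windows. Only the Serpinb8 match, TGAGTCA, has the letters of an AP-1 site. The others were TGAATCA (Serpinb5, Serpinb2 and Serpinb11 at 76) and TGATTCA (Serpinb12 and Serpinb11 at 181). TGANTCA was in none of the 4 Serpinb3 windows. The 2 motifs do not overlap in these windows, and a match describes the letters and not a site that was shown to be bound.

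Levels of the 9 members ranged from near 0 to 9025 per kb. To compare genes, each normalized count was divided by the gene's exon length in kb. Averaged over the 9 libraries, Serpinb5 stood first of the members with 6867 per kb, followed by Serpinb2 with 2480, Serpinb8 with 801 and Serpinb3b with 483 per kb. Serpinb11 and Serpinb12 had 321.9 and 321.8 per kb, Serpinb3a had 75.9, and Serpinb3d and Serpinb3c had 0.274 and 0.268 per kb. Serpinb5 and Serpinb2 stood clear of the member next below them in every library, with Serpinb5 between 4440 and 9025 per kb, Serpinb2 between 1458 and 4074 and Serpinb8 between 481 and 993. Between Serpinb8 and Serpinb3a each neighbour in the order overlapped the next over the libraries, since Serpinb3b ran from 115 to 972 per kb, Serpinb11 from 196 to 468, Serpinb12 from 126 to 556 and Serpinb3a from 9.81 to 288. Serpinb3c and Serpinb3d were lower than Serpinb3a in every library. Of the other genes of the cluster, Serpinb7 had a mean of 1660 per kb, between Serpinb2 and Serpinb8, and ran from 723 to 2189, overlapping both. Serpinb10 had a mean of 332 per kb.

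**Figure D1:**
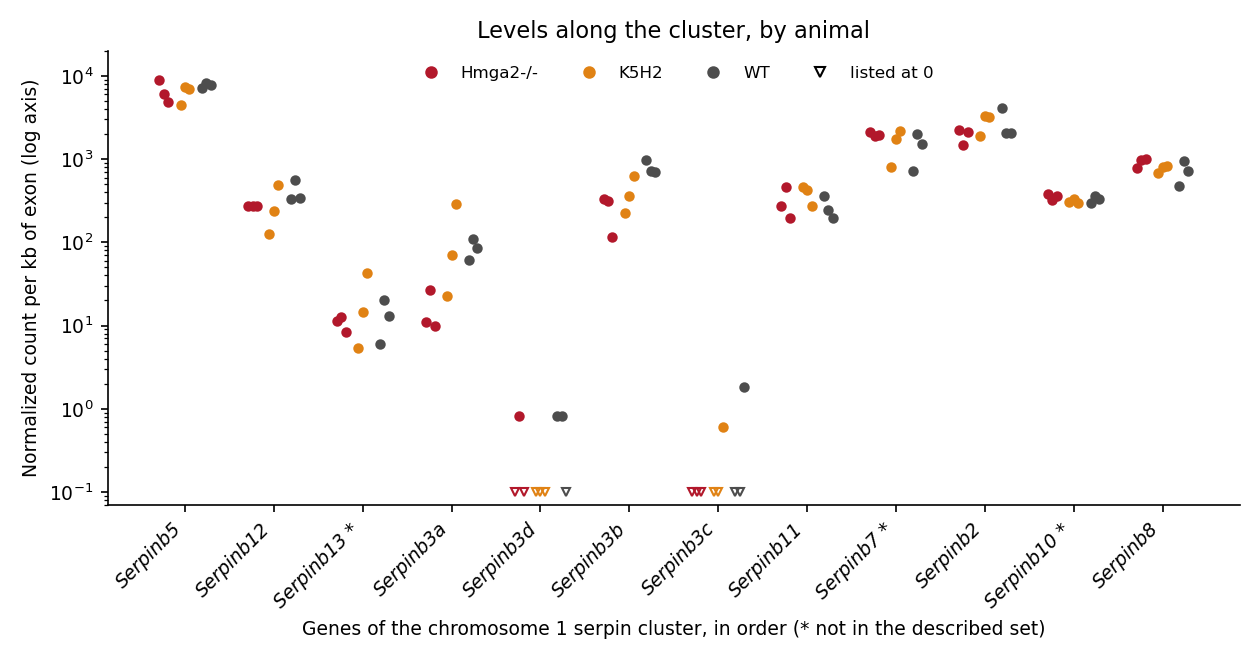
Normalized count per kb of exon (log axis) for the 12 genes of the chromosome 1 cluster in their order on the chromosome, with 1 point per animal, coloured by genotype. Open triangles at the bottom mark values of 0, and genes with an asterisk are cluster neighbours outside the 9 members. Serpinb5 is highest, and Serpinb3c and Serpinb3d sit at or near 0 between expressed neighbours.

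The widest differences between genotypes were in Serpinb3a and Serpinb3b, whose values in Hmga2-/- epidermis all lay below those in WT epidermis, without passing the test over all genes. The human relatives of these genes inhibit cysteine proteases such as cathepsin L and, in another copy, chymotrypsin-like serine proteases. Serpinb3b had normalized counts of 563, 532 and 194 in Hmga2-/- animals, 375, 601 and 1059 in K5H2 animals and 1641, 1204 and 1173 in WT animals. Every Hmga2-/- and K5H2 animal lay below every WT animal, while Hmga2-/- and K5H2 animals overlapped. Its mean was 430 ± 205 in Hmga2-/- animals and 1339 ± 262 in WT animals (SD, n = 3 each), a log2 difference of -1.77 (95% interval -2.73 to -0.81). That difference did not pass the threshold over all genes (limma, unadjusted p = 0.00190, adjusted p = 0.0855). Its mean in K5H2 animals was 678 ± 348, and the log2 difference from WT was -1.09 (-2.05 to -0.14; limma adjusted p = 0.221). In the authors' deposited table, Serpinb3b differed between Hmga2-/- and WT with a log2 fold change of -1.63 and an adjusted p of 0.00283.

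Serpinb3a had normalized counts of 18, 43 and 16 in Hmga2-/- animals, 37, 114 and 470 in K5H2 animals and 99, 179 and 138 in WT animals. The Hmga2-/- animals were again all below the WT animals, and the K5H2 animals ran from below the WT range to far above it. Among the members tested, the spread of Serpinb3a in K5H2 animals was the widest, with a coefficient of variation of 112% and a highest value 12.7 times the lowest. The K5H2 mean of 207 ± 231 (SD, n = 3) was above the WT mean of 139, although the difference of log values has the other sign. Against WT, the log2 difference of Hmga2-/- animals was -2.49 (95% interval -4.13 to -0.84; limma, unadjusted p = 0.00683, adjusted p = 0.116), and that of K5H2 animals was -0.09 (-1.74 to 1.55; adjusted p = 0.957). Between K5H2 and Hmga2-/- animals it was 2.39 (0.75 to 4.04; unadjusted p = 0.00851, adjusted p = 0.140), with the lowest K5H2 value of 37 under the highest Hmga2-/- value of 43. Without K5H2 animal 3 this difference was 1.45 (adjusted p = 0.375), and without K5H2 animal 1 it was 3.26 (adjusted p = 0.0854). The authors' deposited table gives an adjusted p of 0.0314 for K5H2 against Hmga2-/-, and a log2 fold change of -2.41 with an adjusted p of 0.0712 for Hmga2-/- against WT.

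The 2 copies did not keep one ratio across animals. Serpinb3a made up 3.10%, 7.48% and 7.62% of the summed normalized counts of Serpinb3a and Serpinb3b in Hmga2-/- animals, 8.98%, 15.9% and 30.7% in K5H2 animals, and 5.69%, 12.9% and 10.53% in WT animals. The K5H2 shares all lay above the Hmga2-/- shares, and the WT shares overlapped both. This share was looked at after the values were seen and was not tested. Over the 9 libraries, log2 values of the 2 genes had a Pearson r of 0.76, the highest of the 21 pairs of tested members, whose r ran down to -0.62 with a median of 0.21. These points share library scaling, and for this pair also stretches of sequence.

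**Figure D2:**
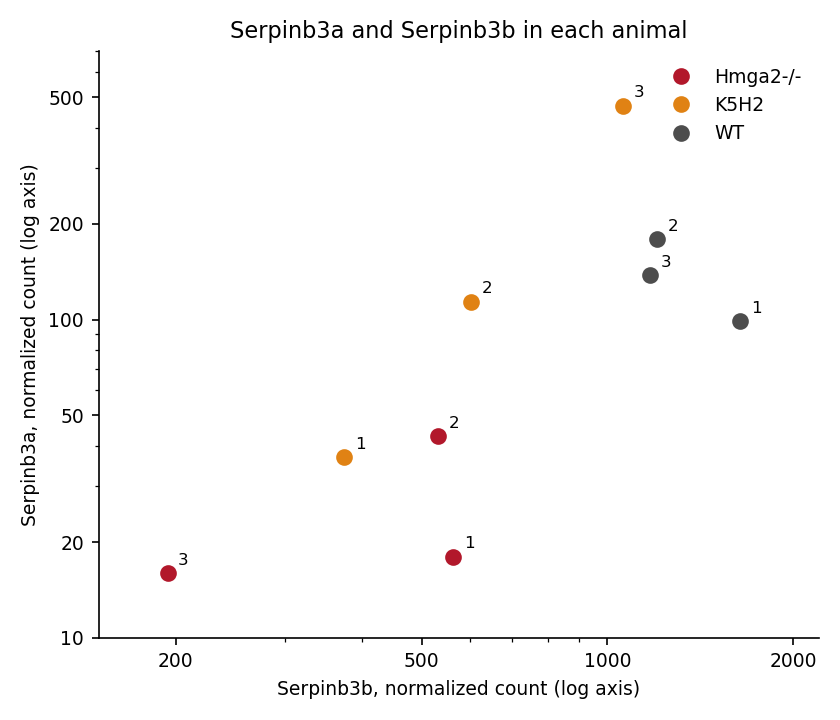
Normalized count of Serpinb3a against that of Serpinb3b in each of the 9 animals, both on log axes, coloured by genotype and numbered by animal. The Hmga2-/- animals lie low on both axes, the WT animals high on the Serpinb3b axis, and K5H2 animal 3 is highest for Serpinb3a at 470.

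Serpinb3c had normalized counts of 0, 0 and 0 in Hmga2-/- animals, 0, 0 and 1 in K5H2 animals and 0, 0 and 3 in WT animals. Serpinb3d had 0, 1 and 0 in Hmga2-/- animals, 0, 0 and 0 in K5H2 animals and 1, 1 and 0 in WT animals. Neither reached 10 in any library, so neither was tested, and at this depth no difference in them was detectable.

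Marker sums of other cell types are given beside these genes. Their ranges overlapped between all genotypes for Langerhans cells, macrophages and neutrophils, melanocytes and endothelium. For fibroblasts, epidermal T cells and mast cells, some pairs of genotypes did not overlap. In RNA of a whole cell layer, fewer cells of a type and less RNA per cell cannot be told apart. Summed markers of Langerhans cells, the resident antigen-presenting cells, reached 18581 to 35839 in Hmga2-/- animals, 16279 to 23307 in K5H2 animals and 7299 to 23109 in WT animals, and 0 of 5 passed limma in any comparison (3 at an unadjusted p under 0.05 in Hmga2-/- against WT, where 23.7% of all genes were, and 0 in the other comparisons). Summed fibroblast markers reached 236 to 897 in Hmga2-/- animals, 192 to 3201 in K5H2 animals and 37 to 96 in WT animals, with 4 of 4 tested markers higher in every Hmga2-/- and K5H2 animal than in any WT animal. Of all tested genes, 14.8% were higher without overlap in Hmga2-/- against WT and 12.9% in K5H2 against WT. Of the fibroblast markers, Col1a2 passed in K5H2 against WT with a log2 difference of 3.85 (limma adjusted p = 0.0463). It did so in 7 of 20 alternative analyses. All 4 had an unadjusted limma p under 0.05 in Hmga2-/- against WT (23.7% of genes) and in K5H2 against WT (18.0%). By the adjusted p of the authors' deposited table, 3 passed in Hmga2-/- against WT (7.66% of the genes with a value). In K5H2 against WT all 4 did (5.82%). Epidermal T cell markers summed to 3845 to 4925 in Hmga2-/- animals, 1590 to 2378 in K5H2 animals and 1315 to 4227 in WT animals. Thy1 was the largest part of these sums, with means of 3515 in Hmga2-/- animals, 1243 in K5H2 animals and 2150 in WT animals. Cd3e, Cd7 and Trdc had higher means in K5H2 than in Hmga2-/- animals (190, 237 and 287 against 128, 223 and 227). Cd3d had a lower one (95.3 against 117), and the animals of those genotypes overlapped for these 4 genes. None of the 5 passed limma in any comparison. Macrophages and neutrophils can express Serpinb2. Their marker sums were 741 to 1163 in Hmga2-/- animals, 776 to 1733 in K5H2 animals and 575 to 1227 in WT animals. Csf1r was the largest part of these sums, with means of 809 in Hmga2-/- animals, 1069 in K5H2 animals and 559 in WT animals. Of 5 tested markers, 0 passed limma in any comparison. Cd68, a macrophage marker, was lower in every Hmga2-/- and K5H2 animal than in any WT animal. Of all tested genes, 14.9% were lower without overlap in Hmga2-/- against WT and 14.1% in K5H2 against WT. The authors' deposited table gives Cd68 an adjusted p of 0.0246 in Hmga2-/- against WT, where 7.66% of the genes with a value were under 0.05. In K5H2 against WT it gives Cd68 0.174. The other 4 tested markers had positive log2 differences from WT in both comparisons and overlapped the WT animals. Of the neutrophil markers, Ly6g was at 0 in all animals, and Mpo, the gene of myeloperoxidase, had 0, 0 and 0 in Hmga2-/- animals, 38, 7 and 36 in K5H2 animals and 2, 0 and 1 in WT animals. Mpo was too low for the limma fit; the authors' deposited table gives it an adjusted p of 0.00202 in K5H2 against WT and 0.000598 in K5H2 against Hmga2-/-. Markers of melanocytes, mast cells and endothelium summed to at most 703, 106 and 22 in any animal, with the mast cell gene Tpsb2 at 0. The part of these cells in the serpin values was not tested.

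Serpinb2, or plasminogen activator inhibitor 2, blocks the urokinase that activates plasminogen and is made by keratinocytes and macrophages. Its normalized counts were 5238, 3425 and 4902 in Hmga2-/- animals, 4461, 7724 and 7427 in K5H2 animals and 9570, 4874 and 4810 in WT animals. The genotypes overlapped, and WT animal 1 was highest of all. Against WT, the log2 difference was -0.45 in Hmga2-/- animals (95% interval -1.12 to 0.22; limma adjusted p = 0.364) and 0.06 in K5H2 animals (-0.60 to 0.73; adjusted p = 0.930). Between K5H2 and Hmga2-/- animals it was 0.51 (-0.15 to 1.18; adjusted p = 0.346). The enzyme it blocks, Plau, had means of 1645 in Hmga2-/- animals, 1379 in K5H2 animals and 1625 in WT animals, and did not pass the test either.

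Serpinb8, whose human form inhibits the proprotein convertase furin, had normalized counts of 3746, 4666 and 4762 in Hmga2-/- animals, 3283, 3822 and 3994 in K5H2 animals and 2306, 4562 and 3431 in WT animals. All genotypes overlapped, and K5H2 animals were the most alike, the highest value being 1.22 times the lowest. The log2 difference from WT was 0.40 in Hmga2-/- animals (95% interval -0.09 to 0.90; limma adjusted p = 0.288), and 0.16 in K5H2 animals (-0.34 to 0.65; adjusted p = 0.743). Between K5H2 and Hmga2-/- animals it was -0.24 (-0.74 to 0.25; adjusted p = 0.547). Furin had means of 2592 in Hmga2-/- animals, 2628 in K5H2 animals and 3435 in WT animals, with adjusted p values of 0.166 and 0.239 against WT.

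Serpinb12, in its human form, inhibits trypsin-like serine proteases, and so does Serpinb11 in the mouse. Serpinb12 had normalized counts of 685, 675 and 681 in Hmga2-/- animals, 314, 597 and 1228 in K5H2 animals and 823, 1388 and 844 in WT animals. The Hmga2-/- animals were almost equal, with a coefficient of variation of 0.740% against 65.6% in K5H2 animals and 31.5% in WT animals, and all lay below WT. The log2 difference from WT was -0.54 in Hmga2-/- animals (95% interval -1.42 to 0.34; limma adjusted p = 0.411) and -0.69 in K5H2 animals (-1.57 to 0.19; adjusted p = 0.385). Between K5H2 and Hmga2-/- animals it was -0.15 (-1.03 to 0.73; adjusted p = 0.852), although the K5H2 mean of 713 was above the Hmga2-/- mean of 680, because the fit averages log values.

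Serpinb11 had normalized counts of 600, 1004 and 430 in Hmga2-/- animals, 1023, 931 and 590 in K5H2 animals and 788, 538 and 429 in WT animals. The genotypes overlapped throughout. Its log2 difference was 0.17 in Hmga2-/- animals against WT (95% interval -0.56 to 0.90; limma adjusted p = 0.770), 0.54 in K5H2 animals against WT (-0.19 to 1.27; adjusted p = 0.412) and 0.37 between K5H2 and Hmga2-/- animals (-0.36 to 1.10; adjusted p = 0.537).

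Serpinb5, the non-inhibitory member, had normalized counts of 24819, 16741 and 13436 in Hmga2-/- animals, 12209, 20409 and 19211 in K5H2 animals and 19530, 22461 and 21135 in WT animals. Hmga2-/- animal 1 was the highest of the 9 and K5H2 animal 1 the lowest, and the WT animals lay close together with a coefficient of variation of 6.98%. Against WT, the log2 difference was -0.24 in Hmga2-/- animals (95% interval -0.81 to 0.32; limma adjusted p = 0.562) and -0.32 in K5H2 animals (-0.88 to 0.24; adjusted p = 0.533). Between K5H2 and Hmga2-/- animals it was -0.07 (-0.64 to 0.49; adjusted p = 0.890).

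**Figure D3:**
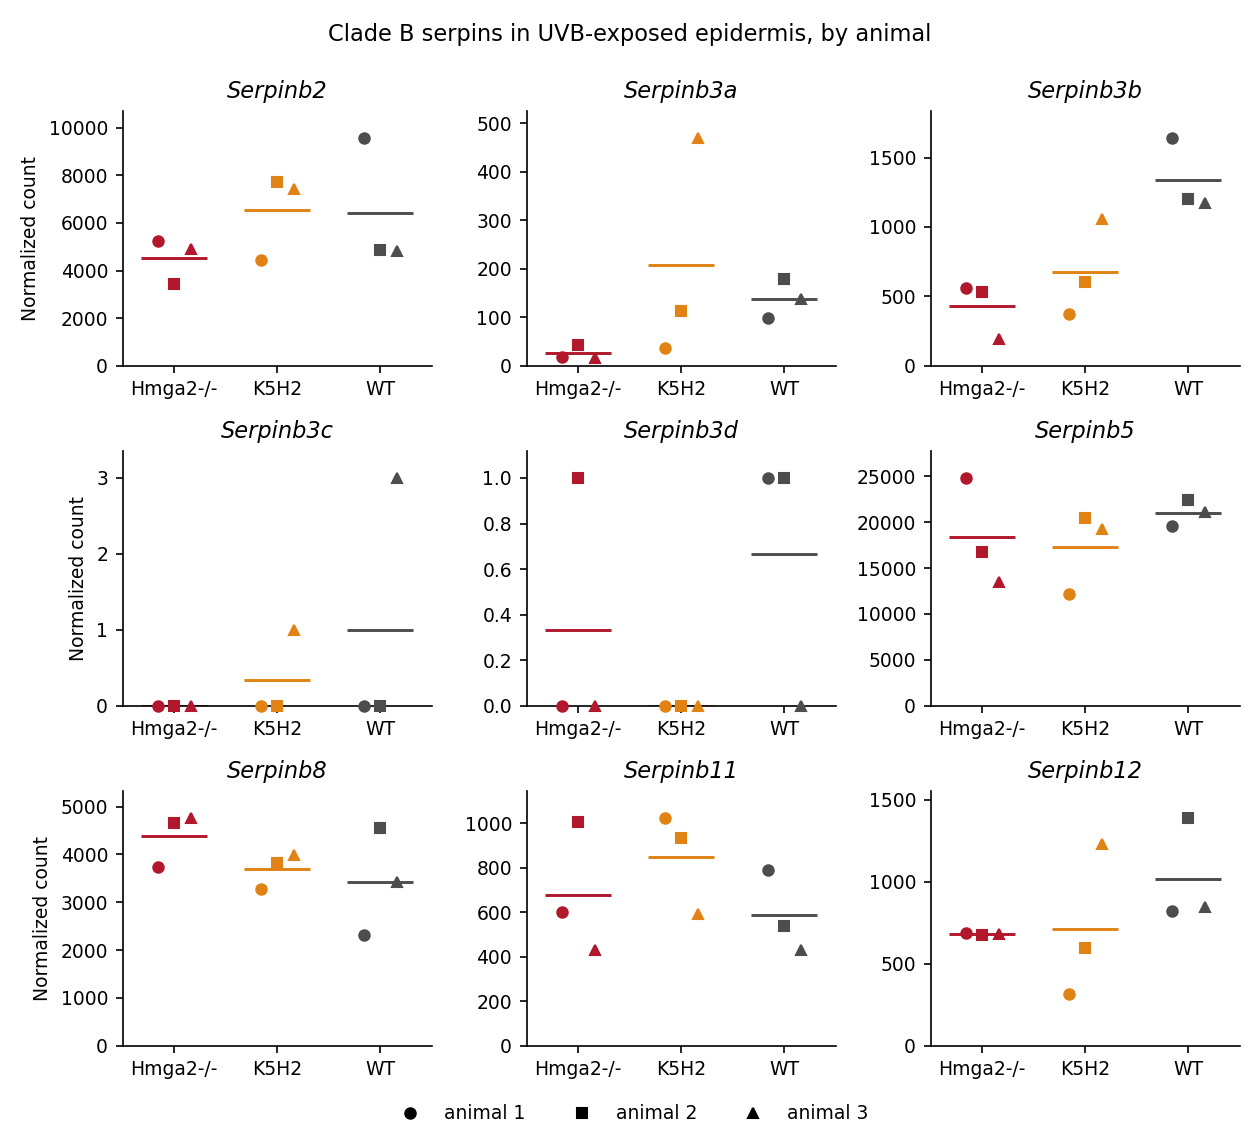
Normalized count of each of the 9 members, with 1 point per animal, the animal number given by the shape and the genotype mean by a line. Each panel has its own linear axis from 0. The Hmga2-/- animals lie below the WT animals for Serpinb3a, Serpinb3b and Serpinb12, and the other panels overlap.

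Counted together, 0 of the 7 tested members passed a limma adjusted p under 0.05 in Hmga2-/- against WT, where 0.728% of 14695 tested genes did. None passed in K5H2 against WT (1.28% of genes) or in K5H2 against Hmga2-/- (0.497% of genes). At an unadjusted p under 0.05 the members numbered 2, Serpinb3a and Serpinb3b, against 23.7% of genes in Hmga2-/- against WT. In K5H2 against WT it was 1, Serpinb3b, against 18.0% of genes, and in K5H2 against Hmga2-/- it was 1, Serpinb3a, against 21.1%. The authors' deposited table has an adjusted p under 0.05 for Serpinb3b in Hmga2-/- against WT (7.66% of the genes with a value there), for no member in K5H2 against WT (5.82%) and for Serpinb3a in K5H2 against Hmga2-/- (4.03%). A limma p-value here sets a difference of means against 1 spread per gene between animals. That spread is shared by the 3 genotypes, of 3 animals each, and moderated across genes.

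The animals of the 2 genotypes did not overlap for 3 of 7 members in Hmga2-/- against WT, all lower. Of tested genes, 14.9% were lower and 14.8% higher without overlap there. Members without overlap numbered 1 of 7 in K5H2 against WT, also lower (14.1% of genes lower, 12.9% higher). In K5H2 against Hmga2-/- it was 0 of 7 (26.4% of genes in either direction). The median log2 difference of the 7 members was -0.45 in Hmga2-/- against WT, beside -0.01 over all tested genes. It was -0.09 in K5H2 against WT, beside -0.02, and 0.37 in K5H2 against Hmga2-/-, beside 0.01. The first 2 of these comparisons share the WT animals, and each pair of comparisons shares a genotype.

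**Figure D4:**
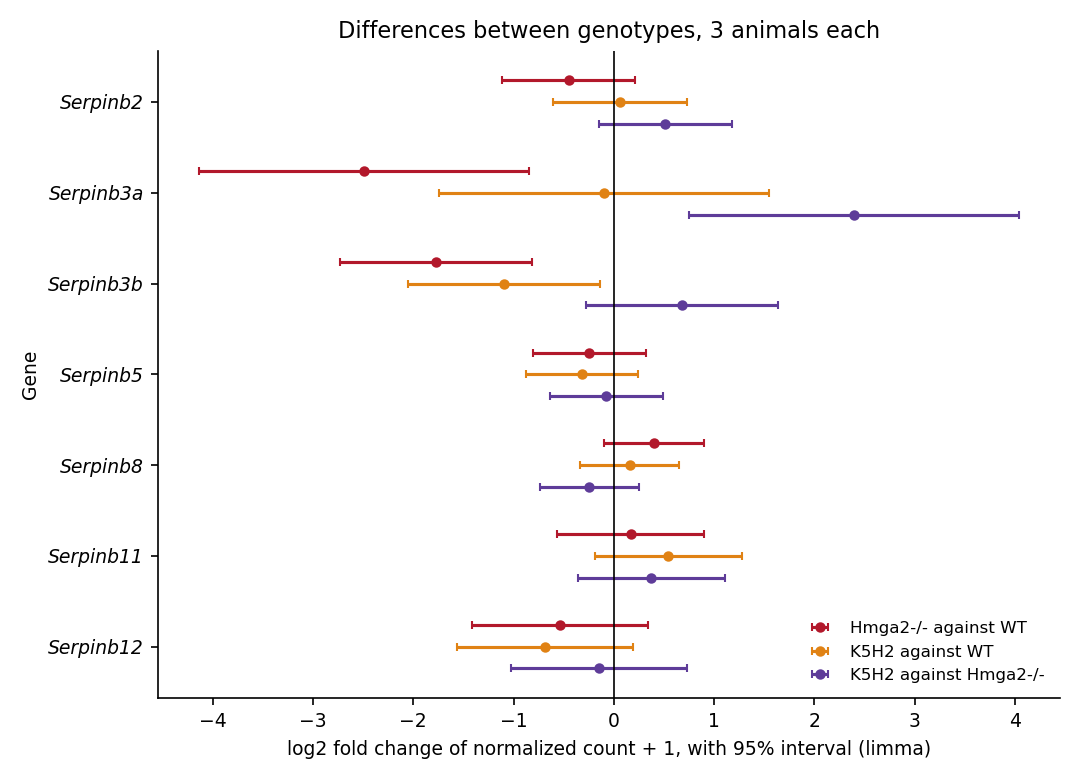
Log2 fold change of the normalized count plus 1 for the 7 tested members, with 95% intervals from limma, for Hmga2-/- against WT, K5H2 against WT and K5H2 against Hmga2-/-. The intervals of Serpinb3a and Serpinb3b in Hmga2-/- against WT lie below 0, as does that of Serpinb3b in K5H2 against WT. That of Serpinb3a in K5H2 against Hmga2-/- lies above 0. All other intervals cross 0, among them those of Serpinb2, Serpinb5, Serpinb8, Serpinb11 and Serpinb12 in each comparison.

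K5H2 animal 1 had the lowest K5H2 value for 6 of the 7 tested members and the highest for Serpinb11. K5H2 animal 3 was highest of its genotype for 4 members, as were Hmga2-/- animal 1 and WT animal 2. Hmga2-/- animal 3 and WT animal 1 were each lowest of their genotype for 4 members. Summed over the 9 members, normalized counts were 35669, 27087 and 24421 in Hmga2-/- animals, 21702, 34198 and 33980 in K5H2 animals and 34758, 35207 and 31963 in WT animals. The WT sums lay closer together than those of the other genotypes, and Hmga2-/- animal 1 was the highest.

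The 3 other genes of the cluster did not pass limma in any comparison, and 0 had an unadjusted p under 0.05. Serpinb7, a serpin whose loss in humans causes a palmoplantar keratoderma, had normalized counts of 4139, 3732 and 3859 in Hmga2-/- animals, 1553, 3396 and 4283 in K5H2 animals and 1415, 3923 and 2939 in WT animals. Serpinb10, which adjoins Serpinb2 and is annotated as a polymorphic pseudogene, had 1343, 1118 and 1258 in Hmga2-/- animals, 1057, 1147 and 1049 in K5H2 animals and 1036, 1270 and 1164 in WT animals. Serpinb13 was low, with 19, 21 and 14 in Hmga2-/- animals, 9, 24 and 72 in K5H2 animals and 10, 34 and 22 in WT animals.

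A second clade B cluster lies on chromosome 13, and it held the 1 clade B serpin that passed. Of its 15 genes in the table, 8 were tested, and 1 was called lower in Hmga2-/- against WT, where 0.619% of genes were called lower. Serpinb6c had normalized counts of 196, 523 and 119 in Hmga2-/- animals, 339, 726 and 342 in K5H2 animals and 2278, 1060 and 1652 in WT animals. It was lower in all 3 Hmga2-/- animals than in any WT animal, with a log2 difference of -2.78 (95% interval -3.88 to -1.67; limma adjusted p = 0.0430). The call held in 11 of 20 alternative analyses, and it was lost without WT animal 1 or 3, Hmga2-/- animal 1 or 3, or K5H2 animal 3, with an adjusted p of up to 0.172. It was also lost without WT animal 1 and Hmga2-/- animal 3 together (0.369), with voom (0.0788), with robust moderation (0.0518) and with those groups alone (0.0673). In K5H2 against WT its log2 difference was -1.85 (adjusted p = 0.0921). Serpinb1a, an inhibitor of neutrophil proteases, had log2 differences of -1.52 in Hmga2-/- against WT (adjusted p = 0.0558) and -1.35 in K5H2 against WT (adjusted p = 0.0610). Serpinb6d, a gene of low level, had -3.62 (adjusted p = 0.0791) and -3.33 (adjusted p = 0.0798). Its normalized counts were 3, 12 and 0 in Hmga2-/- animals, 3, 3 and 5 in K5H2 animals and 92, 35 and 28 in WT animals. In the authors' deposited table, Serpinb1a, Serpinb6c and Serpinb6d have an adjusted p under 0.05 in Hmga2-/- against WT (0.000244, 0.00261 and 0.00192), and Serpinb1a and Serpinb6d in K5H2 against WT (0.00130 and 0.000119).

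None of the 13 tested proteases among 17 listed as targets or partners of clade B serpins passed in any comparison. At an unadjusted p under 0.05 they numbered 2 in Hmga2-/- against WT (23.7% of all genes), 5 in K5H2 against WT (18.0%) and 5 in K5H2 against Hmga2-/- (21.1%). By the adjusted p of the authors' deposited table, 0 passed in Hmga2-/- against WT (7.66% of the genes with a value), 3 in K5H2 against WT (5.82%) and 2 in K5H2 against Hmga2-/- (4.03%). Ctsl, which encodes cathepsin L, had normalized counts of 4639, 8108 and 7426 in Hmga2-/- animals, 1720, 3804 and 3865 in K5H2 animals and 9641, 7258 and 6859 in WT animals. All K5H2 animals lay below all others, with a log2 difference from WT of -1.42 (limma adjusted p = 0.0582). Ctsg, the gene of cathepsin G, which human SERPINB4 inhibits, was listed at 0 in every library. Of 14 other epidermal protease inhibitors, all tested, 1 passed: Timp3, an inhibitor of metalloproteinases, was higher in K5H2 than in WT animals by 0.78 on the log2 scale (adjusted p = 0.0455; 0.653% of genes called higher). That call held in 8 of 20 alternative analyses and was lost whenever 1 of the 9 animals was left out. In Hmga2-/- against WT, Timp3 was higher by 0.76, above every WT animal, and did not pass (limma adjusted p = 0.0558). The authors' deposited table gives Timp3 an adjusted p of 0.00197 in Hmga2-/- against WT and 0.00106 in K5H2 against WT. By that adjusted p, 4 of the 14 inhibitors passed in Hmga2-/- against WT (7.66% of the genes with a value). In K5H2 against WT it was 3 (5.82%), and in K5H2 against Hmga2-/- 0 (4.03%).

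Layer and stress markers of keratinocytes, 7 of them keratins, were listed to read the serpins against. Of 10 tested, 3 passed in Hmga2-/- against WT, all lower, where 0.619% of all tested genes were called lower. These were Krt6b with a log2 difference of -6.05 (limma adjusted p = 0.0113), Krt6a with -4.02 (0.0180) and Krt16 with -3.36 (0.0236), keratins that are induced in wounded or hyperproliferating epidermis. Each of these calls was lost without WT animal 3, Hmga2-/- animal 1 or Hmga2-/- animal 3, and Krt16 also without WT animal 1. All K5H2 animals were also below every WT animal for Krt6b, Krt6a and Krt16, with log2 differences of -3.19, -2.42 and -2.26. These did not pass (limma adjusted p = 0.0663, 0.0610 and 0.0610). The authors' deposited table gives adjusted p values of 0.0333, 0.00886 and 0.0108 for them in K5H2 against WT. Over the 9 libraries, log2 values of Serpinb3b had a Pearson r of 0.80 with Krt6b, 0.75 with Krt6a and 0.71 with Krt16, and of -0.71 with Krt10, a keratin of the spinous layer. Serpinb8 ran the other way, with r of 0.95 with Krt10 and -0.65 with Krt6a. WT animal 1 was highest of the 9 for Serpinb3b, Krt6a, Krt6b and Krt16, and lowest for Serpinb8 and Krt10. How far the r values rest on that animal was not tested. These correlations are descriptions over animals of 3 genotypes that share one scaling.

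For each tested member, the 3 genes most like it were those with the highest Pearson r of log2 values over the 9 libraries among the tested genes. Members, predicted genes, genes known by clone names and genes with -ps in their names were left out of this ranking. For Serpinb3b they were Aldh3b3 (0.97), Sprr2a1 (0.97) and Sprr2a2 (0.97), the Sprr2a genes being cornified envelope precursor genes. Serpinb8 was most like H2-Ab1 (0.98), H2-Eb1 (0.97) and Hlx (0.97), the H2 genes encoding class II antigen-presenting molecules. WT animal 1 was lowest of the 9 for both Serpinb8 and H2-Eb1. Genes like Serpinb5 included Ly6g6c (0.99) and mt-Tt (0.97), and Serpinb3a was most like Slc5a9 (0.95), Mettl15 (0.94) and Slc36a1 (0.94). For Serpinb2 they were Kpna1 (0.95), Dhx29 (0.94) and Ube3c (0.92), for Serpinb11 Ubr7 (0.95), Epdr1 (0.94) and Zadh2 (0.92), and for Serpinb12 Exoc6b (0.96), Pik3r3 (0.96) and Plppr2 (0.95). With 9 points and 14695 genes, high values of r are reached by many genes, so these names order the genes and carry no test.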

How the data were processed

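RNA-seq of polyadenylated RNA, in stranded libraries per the labels' protocols, came from 9 animals of 3 genotypes. The submitters' processing notes list Trim Galore, STAR and DESeq2, without versions, and the build GRCm38. The authors deposited 1 table of 55536 genes. Per the file headers, each library has a column of normalized counts, which are whole numbers after rounding. They were handled as a score, as was the deposited mean of the same values. The authors also deposited log2 fold changes and adjusted p-values of their comparisons. The table held 0 per-sample columns of other series.

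A count test was planned only for raw counts, so it was not used here. Instead limma 3.58.1 in R 4.3.3 (limma-trend, two-sided) was fitted on log2(value + 1) over 9 libraries for 14695 genes with at least 10 in at least 3 libraries. P-values were adjusted over all of them by Benjamini-Hochberg, with a threshold of 0.05. Fold changes on this scale understate changes of low genes. Approximate reads came from the value of 1 read: between 97.96% and 100% of genes listed in 1 library alone lay within 0.1 reads of a whole multiple. The fit was tested on simulated data. Sequences were aligned with MAFFT 7.526.

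The members, gene lists and tests were chosen with earlier results of these data known. Named genes are the members, listed genes that were called or stand beside a member, and the 3 genes most like each member, of which 1 is not reported here. Serpinb1a, Serpinb6d, Mpo, Cd68, Csf1r, Thy1 and the other epidermal T cell markers were named after their values were seen. The alternatives were other pseudocounts, filters and scalings, voom, robust moderation, a replicate block, the compared groups alone and each library left out.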

Additional observations from a re-analysis of the deposited data

How the results depend on the processing

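No member passed the threshold under any of the 20 alternatives in any comparison, limma-voom included. Serpinb3a and Serpinb3b kept the sign of their Hmga2-/- against WT difference under all of them, with Serpinb3a between -2.92 and -2.23 (adjusted p 0.0629 to 0.589) and Serpinb3b between -2.04 and -1.12 (0.0645 to 0.543). The Serpinb3b difference of -1.12 came without WT animal 1 and Hmga2-/- animal 3 together, and that setting gave 0 called genes in Hmga2-/- against WT, with 1156 at an unadjusted p under 0.05. Small differences turned sign. With single libraries left out, Serpinb11 in Hmga2-/- against WT ran from -0.16 to 0.45. In K5H2 against WT, Serpinb8 ran from -0.10 to 0.39, Serpinb2 from -0.11 to 0.39 and Serpinb3a from -1.04 to 0.78, and Serpinb8 was also -0.10 without both libraries. In K5H2 against Hmga2-/-, Serpinb5 ran from -0.27 to 0.17 and Serpinb12 from -0.65 to 0.33, and with a common total per library they were 0.15 and 0.077. Hmga2 in Hmga2-/- against WT ran from -4.36 to -1.93 with single libraries left out. In K5H2 against WT it ran from -5.17 to -2.74 and passed without WT animal 2 (-5.17, adjusted p = 0.0392); in K5H2 against Hmga2-/- it ran from -1.61 to 0.18. The causes of these shifts were not tested.

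Counts of called genes moved more. In Hmga2-/- against WT, 107 genes were called, against 193 with a common total, 23 with voom, 38 with those groups alone, and 1 to 482 with single libraries left out. In K5H2 against WT, 188 were called, against 119 with a filter of 50, 303 with voom, 103 with those groups alone, 74 without both libraries named above, and 17 to 307 with single libraries left out. In K5H2 against Hmga2-/-, 73 were called, against 321 with a common total, 42 without both libraries, and 19 to 213 with single libraries left out. A common total moved the median of all genes to -0.17 in Hmga2-/- against WT and to 0.23 in K5H2 against Hmga2-/-, and the calls there were 294 higher and 27 lower, against 53 and 20. In K5H2 against WT it gave 145 higher and 73 lower, against 96 and 92. The replicate block gave 120 calls in K5H2 against WT and no called member. Same-numbered animals of 2 genotypes deviated from their means with correlations between -0.22 and 0.21, so the numbers were not taken as pairs.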
